A study of Mus musculus with 17 samples.

Results

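The genes described here are 7 that supply cells with NADPH or belong to the pentose phosphate pathway: G6pdx, Pgls, Pgd, Taldo1, Tkt, Me1 and Idh1. They were picked by name from the 31091 genes of the count table, with earlier results of these data known and with no threshold on a measured value. The differences between debris and live-cell medium, and the interactions built from them, are therefore given as a description and not as independent evidence. All 7 genes were counted in every sample, with a lowest count of 15 reads, so that none entered a fit only through a group in which it was high.

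The pentose phosphate pathway takes glucose 6-phosphate from glycolysis. Its oxidative branch runs through glucose-6-phosphate dehydrogenase (G6pdx), 6-phosphogluconolactonase (Pgls) and 6-phosphogluconate dehydrogenase (Pgd), and both dehydrogenases reduce NADP to NADPH. Its non-oxidative branch, with transaldolase (Taldo1) and transketolase (Tkt), links pentose phosphates back to glycolysis. Malic enzyme (Me1) and isocitrate dehydrogenase (Idh1) are other cytosolic sources of NADPH. In dendritic cells and other phagocytes NADPH feeds the reduction of glutathione and thioredoxin, the phagocyte oxidase and lipid synthesis.

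The study asked how debris of apoptotic or necroptotic tumor cells changes conventional dendritic cells. Splenic CD11c+ cells came from female C57BL/6JRj mice, bought at an age of 8 weeks, that later carried B16-FLT3L tumors, whose FLT3 ligand expands dendritic cells, and spleens of at least 2 mice were pooled per experiment. They were cultured for 6 h, with GM-CSF, in uncentrifuged medium of TC-1 lung tumor cells that had all received cumate for 24 h. WT medium came from live TC-1 cells, BimS medium from the clonal line TC-1-iBimS, which undergoes apoptosis by overexpression of BimS, and RIPK3 medium from the clonal line TC-1-iRIPK3, which undergoes necroptosis by overexpression of RIPK3. Afterwards cDC1s and cDC2s were sorted, which gave 17 samples: 3 each of cDC1s with WT, BimS and RIPK3 medium, 3 each of cDC2s with WT and BimS medium, and 2 of cDC2s with RIPK3 medium. Nothing in the labels says that the replicates came from separate mice, so p-values measure the spread between these samples, part of which may be technical.

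Between 16095159 and 21645289 reads per sample were counted on genes (median 18986002). The labelled cell types bore their markers. The summed level of 8 cDC1 markers, Xcr1 and Clec9a among them, was 1409 to 1736 CPM in cDC1 samples and 99.0 to 132 CPM in cDC2 samples, and that of 8 cDC2 markers was 287 to 375 CPM in cDC2 samples and 2.65 to 5.18 CPM in cDC1 samples. CPM are counts scaled to a common library size after TMM normalization. Among 13 markers of adherent tumor cells the sum was 11.2 to 15.1 CPM in cDC1 samples and 4.27 to 10.1 CPM in cDC2 samples, with Ccn1 at 0 in every cDC1 sample with RIPK3 medium and Krt8 at 0 in every cDC2 sample with WT medium. In a bulk sample, a larger share of cells with a transcript and more of it per cell cannot be told apart.

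In the genome build GRCm39 the genes lie apart. G6pdx (ENSMUSG00000031400) is at chrX:73449857-73472819, Pgls (ENSMUSG00000031807) at chr8:72044202-72053768, Pgd (ENSMUSG00000028961) at chr4:149233246-149251228, and Taldo1 (ENSMUSG00000025503) at chr7:140972053-140982886. Tkt (ENSMUSG00000021957) is at chr14:30270156-30299612, Me1 (ENSMUSG00000032418) at chr9:86462646-86578104, and Idh1 (ENSMUSG00000025950) at chr1:65196781-65225721. All 7 are protein-coding genes. G6pdx, Pgd, Me1 and Idh1 are transcribed from the minus strand and the other genes from the plus strand.

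The start sites of G6pdx, Pgd, Taldo1 and Me1 are shown because these are the members called higher with both kinds of debris in both cell types. Each sequence is from RefSeq, was located in GRCm39 by exact match and runs 5′ to 3′ in the direction of transcription, from 150 bases before the annotated start site to its base 20. The positions are chrX:73472467-73472636 on the minus strand for G6pdx, chr4:149251143-149251312 on the minus strand for Pgd, chr7:140971923-140972092 on the plus strand for Taldo1 and chr9:86577948-86578117 on the minus strand for Me1. Capitals mark matches on either strand to TGACNNNGC, the core of the antioxidant response element, or to the AP-1 motif TGANTCA.
G6pdx: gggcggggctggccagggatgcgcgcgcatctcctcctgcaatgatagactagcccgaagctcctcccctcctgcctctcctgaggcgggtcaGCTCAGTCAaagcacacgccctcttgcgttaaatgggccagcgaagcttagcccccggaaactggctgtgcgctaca
Pgd: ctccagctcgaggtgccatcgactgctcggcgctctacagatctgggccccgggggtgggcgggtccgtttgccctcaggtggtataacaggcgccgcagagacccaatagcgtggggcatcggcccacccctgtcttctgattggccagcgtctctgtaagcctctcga
Taldo1: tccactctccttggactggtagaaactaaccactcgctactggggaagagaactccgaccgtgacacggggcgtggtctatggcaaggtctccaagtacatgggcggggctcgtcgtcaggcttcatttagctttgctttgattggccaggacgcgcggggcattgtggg
Me1: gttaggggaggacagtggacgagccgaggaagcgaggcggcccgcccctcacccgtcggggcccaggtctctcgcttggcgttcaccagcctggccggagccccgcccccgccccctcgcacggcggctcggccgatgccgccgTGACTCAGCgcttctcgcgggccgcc

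The search covered windows of 300 bases, of which 250 lie before the start site, and 1 or 2 annotated start sites per gene. G6pdx held a match to TGACNNNGC on the reverse strand with its first base at -57 from the start site, and Me1 held one at -6 that overlaps a match to TGANTCA. A second start site of Pgd, inside the gene, held TGACATTGC with its first base at 3, whereas the first window of Pgd held none. No match to either motif was found in the windows of Taldo1, Tkt, Pgls and Idh1. Of 32841 windows of this length in the mouse table, 12.4% held TGACNNNGC and 7.81% TGANTCA, so a match describes the letters only.

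Per kilobase of the canonical transcript, the scale on which genes can be set against each other, Taldo1 was the most abundant member in all 6 groups. In cDC1s with WT medium its level was 661 ± 11.6 CPM per kilobase (SD, n = 3), against 59.2 ± 1.21 for Pgd, 47.2 ± 2.33 for Tkt, 33.6 ± 1.13 for Pgls and 30.2 ± 0.449 for G6pdx, and no 2 neighbours in this order overlapped. Idh1 at 1.49 ± 0.114 and Me1 at 0.230 ± 0.0487 CPM per kilobase lay far below. In cDC2s with WT medium G6pdx ranked next after Pgd, at 60.9 ± 7.00 CPM per kilobase, while Tkt at 33.7 ± 3.57 and Pgls at 29.6 ± 3.67 overlapped. With debris the order in cDC1s was that of cDC2s for the first 5 genes, because G6pdx at 62.1 ± 2.95 with BimS medium lay above Tkt at 52.1 ± 0.814, and the levels of Me1 and Idh1 overlapped in all 4 groups with debris.

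**Figure D1:**
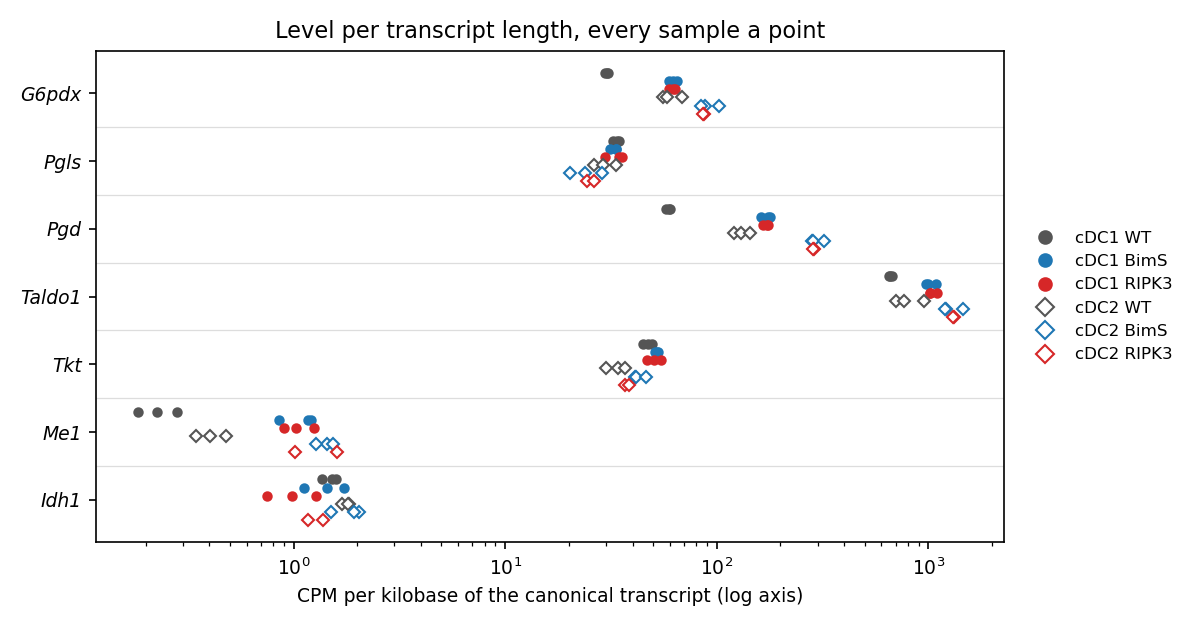
The points are the samples, with CPM per kilobase of canonical transcript on a log axis and 1 line per gene, filled for cDC1s and open for cDC2s. Taldo1 lies highest in every group, and Me1 and Idh1 reach at most 2.05 CPM per kilobase.

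Both dehydrogenases of the oxidative branch were higher in every debris sample than in every WT sample of their cell type. In cDC1s G6pdx was at 179, 176 and 181 CPM with WT medium, 385, 350.1 and 365 CPM with BimS medium, and 374, 352 and 369 CPM with RIPK3 medium. This is a 2.05-fold higher level with BimS medium (1.04 ± 0.05 on the log2 scale with its SE, adjusted p = 1.29e-18). With RIPK3 medium it was 2.04-fold higher (1.03 ± 0.05, adjusted p = 1.23e-18). In cDC2s, where G6pdx started at 328.5, 343.8 and 406.5 CPM with WT medium, it reached 522, 499.8 and 602.5 CPM with BimS medium and 516 and 508 CPM with RIPK3 medium. The log2 fold changes there were 0.59 ± 0.09 (adjusted p = 0.000189) and 0.50 ± 0.10 (adjusted p = 0.00229). Replicate 3 stood above the other cDC2 samples with both WT and BimS medium, and without replicate 1 of the cDC2s with RIPK3 medium the log2 fold change for that medium was 0.49 with an adjusted p of 0.0566. Leaving out one of the 2 cDC2 samples with RIPK3 medium leaves a lone sample, which is then assumed to vary like the other groups, here and below.

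Pgd changed most among the abundant members. In cDC1s it was at 204.5, 198.6 and 206.5 CPM with WT medium, 611, 555 and 598 CPM with BimS medium, and 598, 568 and 592.5 CPM with RIPK3 medium. The debris groups overlapped each other and lay far above WT, with 2.89-fold and 2.88-fold higher levels (log2 fold changes 1.53 ± 0.05 for both, adjusted p = 1.33e-23 and 1.3e-23). In cDC2s Pgd was at 417, 448 and 495.5 CPM with WT medium, 973, 976 and 1100 CPM with BimS medium, and 991 and 979 CPM with RIPK3 medium. The log2 fold changes were 1.16 ± 0.08 (adjusted p = 1.53e-08) and 1.11 ± 0.09 (adjusted p = 6.99e-08), again with no overlap between debris and WT samples.

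Pgls, whose product hydrolyses the lactone between the 2 dehydrogenase steps, did not share this pattern. In cDC1s its 9 samples lay between 27.9 and 33.7 CPM, and the log2 fold changes against WT medium were -0.04 ± 0.07 and -0.02 ± 0.07, with intervals from -0.19 to 0.10 and from -0.17 to 0.13. In cDC2s Pgls was at 24.7, 27.5 and 31.6 CPM with WT medium, 19.2, 22.5 and 27.1 CPM with BimS medium, and 22.9 and 24.7 CPM with RIPK3 medium. Within each replicate number the sample with BimS medium was lower than that with WT medium, although the groups overlapped. The log2 fold change of -0.29 ± 0.12 did not pass the test (adjusted p = 0.198), whereas with the replicate number as a block it did (adjusted p = 0.000775).

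In the non-oxidative branch, Taldo1 was higher with debris and Tkt moved little. Taldo1 in cDC1s was at 837, 821 and 849.8 CPM with WT medium, 1373, 1235 and 1260 CPM with BimS medium, and 1293, 1292 and 1385 CPM with RIPK3 medium. In cDC2s it was at 894, 967 and 1211 CPM with WT medium, 1540, 1517 and 1849 CPM with BimS medium, and 1675 and 1650 CPM with RIPK3 medium. No debris sample fell into the range of WT samples of its cell type. The log2 fold changes were 0.63 ± 0.05 and 0.66 ± 0.05 in cDC1s (adjusted p = 6.28e-13 and 9.91e-14) and 0.67 ± 0.10 and 0.69 ± 0.11 in cDC2s (adjusted p = 0.000226 and 0.000418).

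Tkt in cDC1s was at 145, 152.5 and 160.2 CPM with WT medium, 165, 169 and 169.9 CPM with BimS medium, and 151, 164 and 175 CPM with RIPK3 medium. The samples with BimS medium lay just above those with WT medium, but the log2 fold change of 0.14 ± 0.05 did not pass the test (adjusted p = 0.0849). It did with the replicate number as a block (0.0108) and without replicate 3 of the cDC1s with RIPK3 medium (0.0228). In cDC2s Tkt was at 96.6, 111 and 119.5 CPM with WT medium, 133, 134 and 149 CPM with BimS medium, and 119 and 125 CPM with RIPK3 medium. Here the difference with BimS medium was called (0.35 ± 0.09, adjusted p = 0.0183) and that with RIPK3 medium was not (0.15 ± 0.10, adjusted p = 0.471, with the block 0.00126). The BimS call was lost without TMM normalization (adjusted p = 0.0892), without WT replicate 1 (0.0646) or 2 (0.0737) and without BimS replicate 3 (0.0887).

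Me1, which makes NADPH from malate, had the largest relative difference among the 7 genes, from a low level. In cDC1s it was at 0.947, 0.763 and 1.17 CPM with WT medium, 5.04, 3.55 and 4.90 CPM with BimS medium, and 5.21, 3.77 and 4.26 CPM with RIPK3 medium. In cDC2s it was at 2.00, 1.43 and 1.67 CPM with WT medium, 5.96, 5.34 and 6.38 CPM with BimS medium, and 6.66 and 4.22 CPM with RIPK3 medium. Debris and WT samples did not overlap in either cell type. The log2 fold changes were 2.21 ± 0.22 and 2.18 ± 0.22 in cDC1s (adjusted p = 1.03e-09 and 1.23e-09) and 1.78 ± 0.21 and 1.65 ± 0.23 in cDC2s (adjusted p = 1.09e-05 and 6.93e-05). These rest on 15 to 26 reads per cDC1 sample and 25 to 39 reads per cDC2 sample with WT medium, against 72 to 107 reads with debris.

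Idh1, which makes NADPH from isocitrate, went the other way with RIPK3 medium. In cDC1s it was at 5.23, 4.99 and 4.49 CPM with WT medium, 5.70, 4.77 and 3.71 CPM with BimS medium, and 3.24, 4.22 and 2.47 CPM with RIPK3 medium. All 3 samples with RIPK3 medium lay below all WT samples, and the log2 fold change was -0.55 ± 0.18 (adjusted p = 0.0294). With 43 to 105 reads behind these WT and RIPK3 values, the call was lost without WT replicate 1 (adjusted p = 0.106) or 2 (0.0716) and without RIPK3 replicate 1 (0.0695) or 3 (0.148). In cDC2s Idh1 was at 6.00, 5.56 and 5.99 CPM with WT medium, 6.75, 6.36 and 4.95 CPM with BimS medium, and 4.53 and 3.87 CPM with RIPK3 medium. Both samples with RIPK3 medium were the lowest of the cDC2 samples, with a log2 fold change of -0.49 ± 0.19 that did not pass the test (adjusted p = 0.144) unless the replicate number was a block (0.0139). With BimS medium the differences from WT were -0.05 ± 0.17 in cDC1s and 0.04 ± 0.16 in cDC2s.

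**Figure D2:**
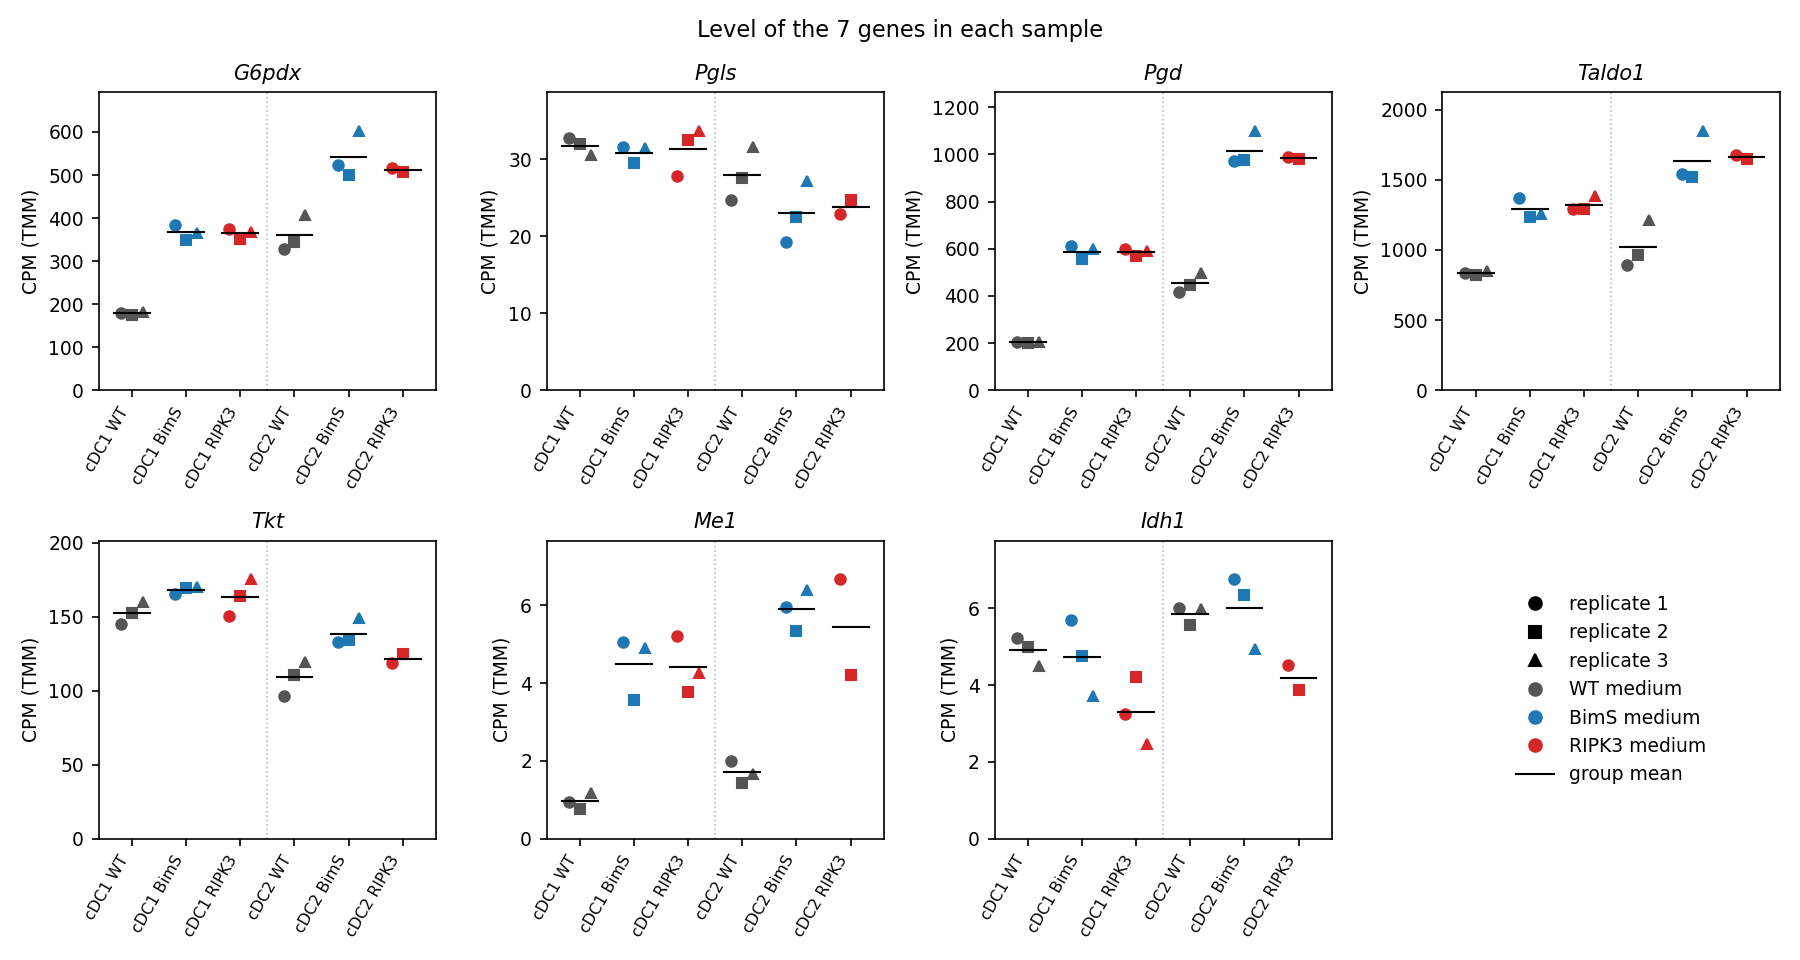
Each panel shows 1 gene, with CPM from 0 on the y axis and the 6 groups on the x axis, a point per sample shaped by replicate number and a bar at the group mean. The debris samples of G6pdx, Pgd, Taldo1 and Me1 lie above the WT samples of the same cell type, and Idh1 is lowest with RIPK3 medium.

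Counted over the 7 genes, BimS medium gave 4 higher and 0 lower calls in cDC1s, where 7.31% of the 19513 genes tested were called higher and 5.89% lower. RIPK3 medium gave the same 4 higher calls (8.34% of genes) and the lower call for Idh1 (8.19% of genes called lower). In cDC2s, 5 of 7 were higher with BimS medium (3.8% of 19239 genes tested) and 4 of 7 with RIPK3 medium (3.93% of genes), and 0 were lower with either (3.21% and 3.28% of genes). Nothing is read from these shares, since the members were picked with such results in view. The median log2 fold change of the 7 genes was 0.63 and 0.66 in cDC1s and 0.59 and 0.50 in cDC2s, against medians over all genes tested between -0.02 and 0.00.

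The cells' own markers and those of other cells differed between the media. Of 8 cDC1 markers in cDC1s, Irf8, Itgae and Wdfy4 were called lower with both media, while Xcr1 and Clec9a were called higher with both and Cd8a with RIPK3 medium. Of 8 cDC2 markers in cDC2s, Irf4 was called lower with both media, from 35.1 to 39.1 CPM with WT medium to 15.0 to 19.5 CPM with BimS medium and 12.6 to 13.4 CPM with RIPK3 medium. Clec10a and Cd209a were called lower with RIPK3 medium, and Esam and Clec4a4 higher with both. In cDC1s the 8 cDC2 markers summed to 2.65 to 3.89, 3.79 to 5.10 and 3.26 to 5.18 CPM with WT, BimS and RIPK3 medium, with Esam called higher with both kinds of debris. In cDC1s the sum of 10 macrophage markers was 11.3 to 15.6 CPM with WT medium, 6.83 to 7.22 CPM with BimS medium and 5.97 to 9.27 CPM with RIPK3 medium, with Mertk at 0 in all cDC1 samples with BimS medium. Of 9 tested there, Fcgr1 and C1qc were called lower with BimS medium and Fcgr1 with RIPK3 medium. In cDC2s the macrophage markers summed to 21.5 to 36.0, 21.5 to 24.7 and 18.7 to 24.5 CPM with WT, BimS and RIPK3 medium, and Fcgr1 was called lower with RIPK3 medium. The sum of the 13 tumor cell markers in cDC1s was 11.2 to 12.1 CPM with WT medium, 12.4 to 14.0 CPM with BimS medium and 13.0 to 15.1 CPM with RIPK3 medium. In cDC2s these tumor markers summed to 5.70 to 10.1, 4.27 to 5.84 and 7.33 to 9.51 CPM in the same order, and in neither cell type was any tumor cell marker called against WT medium. In cDC2s 8 neutrophil markers summed to 1.89 to 3.94 CPM with WT medium, 0.954 to 1.53 CPM with BimS medium and 1.41 to 1.75 CPM with RIPK3 medium, with Ngp, called lower with BimS medium, at 0 in all of those samples, and Ly6g at 0 in all cDC2 samples. There 4 markers of plasmacytoid dendritic cells summed to 192 to 216, 187.5 to 201.5 and 173 to 175 CPM, and Bst2 was called lower with RIPK3 medium (adjusted p = 0.0241). In cDC1s the same 4 markers summed to 60.5 to 66.0, 54.2 to 57.1 and 55.3 to 60.5 CPM, and Tcf4 was called lower with both media (adjusted p = 0.0485 and 0.0487). Of the red cell markers Hbb-bt was called higher in cDC1s with BimS medium, where that list summed to 0.608 to 1.50 CPM against 0.349 to 1.39 CPM with WT medium. The part of these markers in the differences of the 7 genes was not tested.

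**Figure D3:**
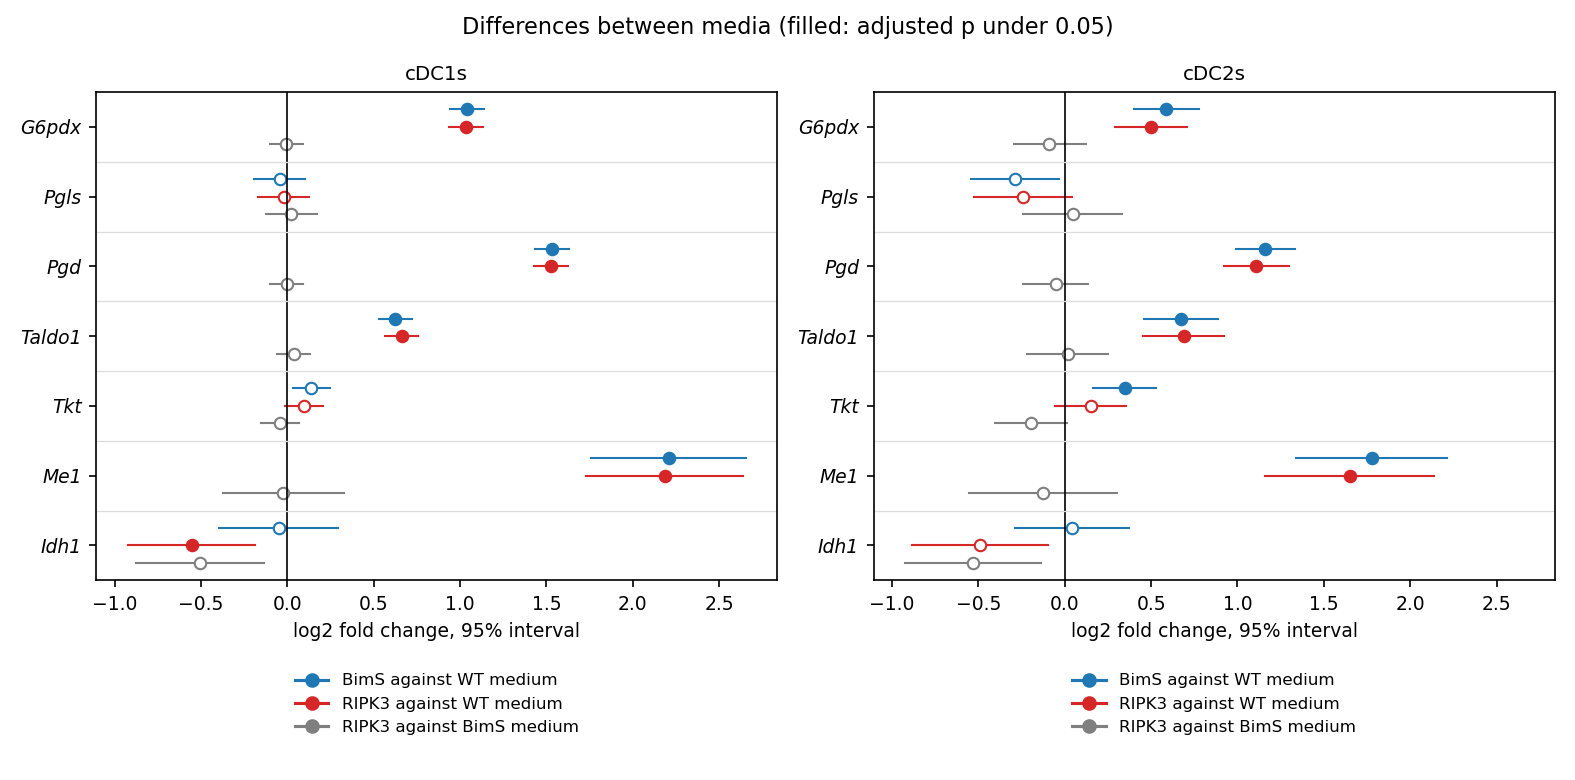
The points are log2 fold changes between media with their 95% intervals, in cDC1s on the left and cDC2s on the right, filled where the adjusted p was under 0.05. In both panels Me1 and Pgd lie farthest above 0 against WT medium, and RIPK3 against BimS medium has no filled point.

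The next comparison set necroptotic against apoptotic debris. In cDC1s none of the 7 genes was called, where 4.15% of genes were, and in cDC2s none was called, where 0.379% of genes were, by edgeR's quasi-likelihood test. That share in cDC2s is 73 genes, and without single samples 0 to 214 were called. At an unadjusted p under 0.05, 1 member passed in each cell type, which was Idh1, and DESeq2 called none. For the members higher with debris the intervals were narrow in cDC1s: the difference of RIPK3 from BimS medium was -0.01 ± 0.05 for G6pdx (-0.10 to 0.09), 0.00 ± 0.05 for Pgd (-0.10 to 0.09) and 0.04 ± 0.05 for Taldo1 (-0.06 to 0.13), and wider for Me1 at -0.02 ± 0.17 (-0.37 to 0.33). In cDC2s the differences were -0.09 ± 0.10 for G6pdx, -0.05 ± 0.09 for Pgd, 0.02 ± 0.11 for Taldo1 and -0.13 ± 0.20 for Me1.

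Idh1 was the member with the widest gap between the debris types. The log2 difference of RIPK3 from BimS medium was -0.50 ± 0.18 in cDC1s (interval -0.87 to -0.13, adjusted p = 0.126) and -0.53 ± 0.19 in cDC2s (-0.93 to -0.14, adjusted p = 0.371). In cDC1s the samples overlapped, since BimS replicate 3 at 3.71 CPM was below RIPK3 replicate 2 at 4.22 CPM, and in cDC2s they did not. With the replicate number as a block Idh1 was called in both cell types (adjusted p = 0.027 and 0.0103), as was Taldo1 in cDC2s (0.13 ± 0.04, adjusted p = 0.032). The block raised the calls over all genes from 810 to 1730 in cDC1s and from 73 to 2755 in cDC2s. Without replicate 2 of the cDC1s with RIPK3 medium, Idh1 was called in cDC1s (-0.72 ± 0.20, adjusted p = 0.0373).

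Without debris the cell types differed in most of these genes. With WT medium, 1 of 7 was higher and 4 of 7 lower in cDC1s than in cDC2s, where 22.5% and 23.7% of the 19082 genes tested were called, 46.2% in all. The oxidative dehydrogenases were lower in cDC1s, G6pdx by -1.01 ± 0.07 on the log2 scale (adjusted p = 1.92e-12) and Pgd by -1.16 ± 0.07 (adjusted p = 8.14e-15), with each cDC1 sample below each cDC2 sample. Taldo1 was lower by -0.29 ± 0.09 (adjusted p = 0.0063), although without replicate 3 of the cDC2s, the highest at 1211 CPM, the adjusted p was 0.0661. Me1 was lower by -0.82 ± 0.27 (adjusted p = 0.015), which was lost without cDC2 replicate 1 (0.0797) or cDC1 replicate 2 (0.0724). Tkt was the member higher in cDC1s, by 0.49 ± 0.07 (adjusted p = 2.47e-06), with a lowest cDC1 sample at 145 CPM and a highest cDC2 sample at 119.5 CPM. Pgls at 0.18 ± 0.10 and Idh1 at -0.26 ± 0.17 were not called (adjusted p = 0.144 and 0.227), and Pgls was called without cDC2 replicate 3 (0.28 ± 0.10, adjusted p = 0.0228).

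The response to debris also differed between the cell types for G6pdx with both media and for Pgd with RIPK3 medium. The tested quantity is the log2 fold change against WT medium in cDC1s less that in cDC2s. It is built from differences known when the genes were picked, so its p-values are a description and not independent evidence. For G6pdx it was 0.45 ± 0.10 with BimS medium (adjusted p = 0.028) and 0.52 ± 0.11 with RIPK3 medium (adjusted p = 0.0103), a larger relative rise in cDC1s. For Pgd it was 0.41 ± 0.10 with RIPK3 medium (adjusted p = 0.0316), and 0.37 ± 0.09 with BimS medium, which did not pass the test (adjusted p = 0.0531) except with the replicate number as a block (0.00194) and under other settings given in the closing section. Among all genes 0.87% were called for BimS medium and 1.14% for RIPK3 medium. After debris G6pdx in cDC1s, at 350.1 to 385 CPM, lay in the range of cDC2s with WT medium, at 328.5 to 406.5 CPM, and Pgd in cDC1s, at 555 to 611 CPM, lay above that of cDC2s with WT medium, at 417 to 495.5 CPM. In absolute terms the levels with debris were still higher in cDC2s.

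The calls of these interactions changed when single libraries were left out, while their sizes moved little. A call was gained for Pgd with BimS medium without cDC2 WT replicate 1 (adjusted p = 0.00789), cDC1 BimS replicate 2 (0.0488) or cDC2 BimS replicate 3 (0.0178). The G6pdx difference with BimS medium was lost without any of the 3 cDC1 WT samples, without cDC1 BimS replicate 1 or 3, and without cDC2 BimS replicate 1 or 2 (adjusted p from 0.0725 to 0.113, log2 difference from 0.39 to 0.45). That with RIPK3 medium was lost without either of the cDC2 RIPK3 samples (log2 difference 0.53 and 0.51, adjusted p = 0.0505 and 0.0885). The Pgd difference with RIPK3 medium was lost without any of the 3 cDC1 WT samples, cDC2 WT replicate 2, cDC1 RIPK3 replicate 1 or 3, or either cDC2 RIPK3 sample (adjusted p from 0.0582 to 0.183, log2 difference from 0.39 to 0.42).

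The other members, Pgls among them (0.24 ± 0.14 and 0.21 ± 0.15, adjusted p = 0.721 and 0.79), gave no called interaction with edgeR as described, and their intervals differ in width. For Taldo1 the difference between the cell types was -0.05 ± 0.12 with BimS medium (-0.30 to 0.20) and -0.04 ± 0.13 with RIPK3 medium (-0.30 to 0.23). For Me1 it was 0.43 ± 0.33 and 0.53 ± 0.34, with intervals from -0.24 to 1.10 and from -0.18 to 1.23, which leave room for a difference as large as that of G6pdx. Tkt with BimS medium had -0.21 ± 0.10 (adjusted p = 0.603). For RIPK3 against BimS medium no member differed between the cell types by this test, where 0.0314% of genes did, and none passed an unadjusted p of 0.05.

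**Figure D4:**
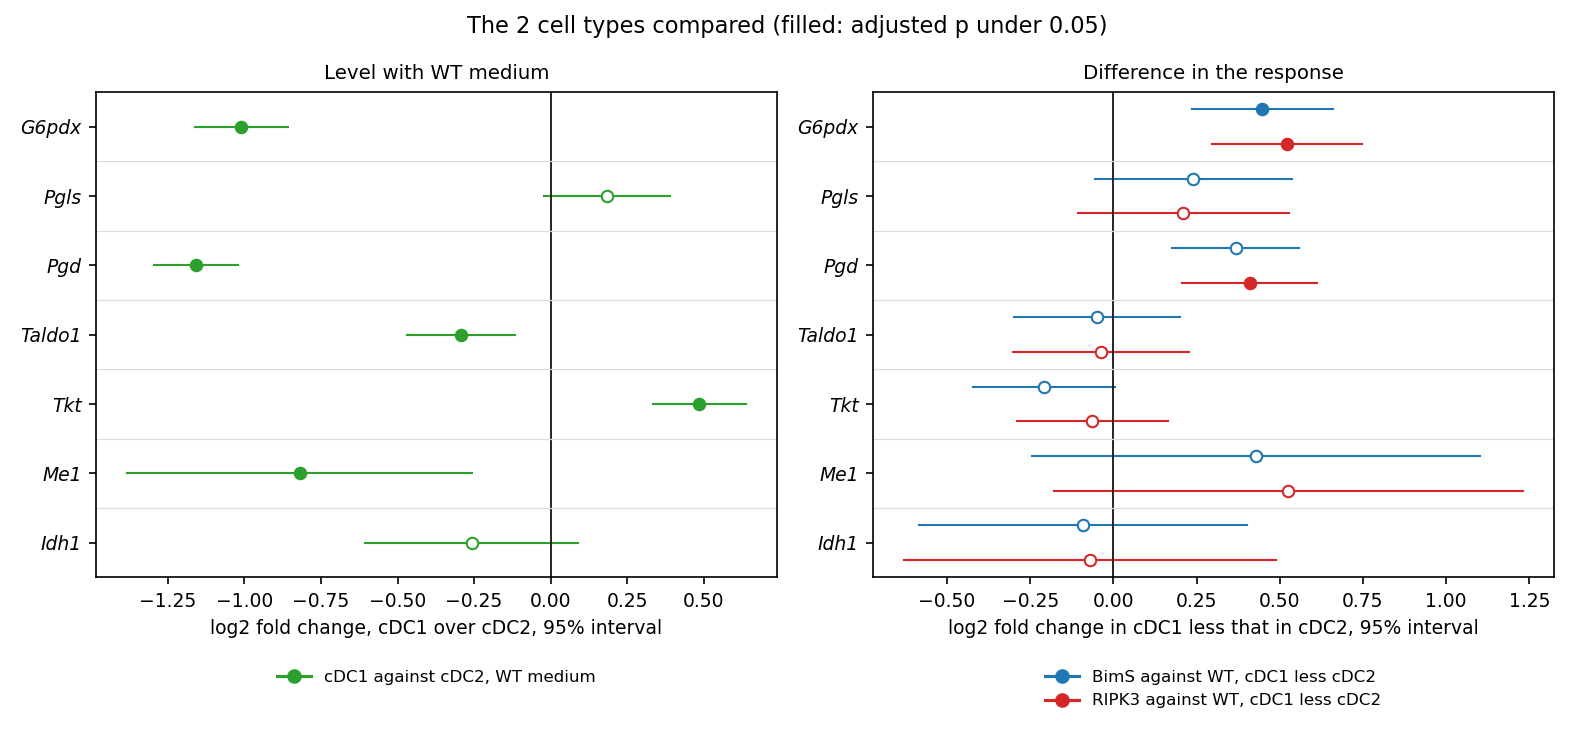
The left panel shows log2 fold changes of cDC1s over cDC2s with WT medium and the right panel the log2 fold change against WT medium in cDC1s less that in cDC2s, with 95% intervals and filled points for an adjusted p under 0.05. G6pdx and Pgd lie left of 0 in the first and right of 0 in the second.

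Lists of related genes place the members in their pathway. Of 11 other pentose phosphate genes, 1 was called higher and 0 lower with BimS medium in cDC1s (median log2 fold change -0.07), none in either direction with RIPK3 medium in cDC1s (median -0.05, and none at an unadjusted p under 0.05), and of the 9 tested in cDC2s, 1 higher and 1 lower with BimS medium (median -0.08) and 1 higher with RIPK3 medium (median -0.17). The higher gene was H6pd, the dehydrogenase of the same reaction in the endoplasmic reticulum, with log2 fold changes of 0.385 ± 0.08 with BimS medium in cDC1s (adjusted p = 0.000894), 0.68 ± 0.14 with BimS medium in cDC2s (0.00326) and 0.56 ± 0.16 with RIPK3 medium in cDC2s (0.0307). The last call was lost without WT replicate 1 (0.0828) or 3 (0.0626), without RIPK3 replicate 1 (0.165) or 2 (0.169), and without TMM normalization (0.0726). Unlike G6pdx, H6pd was higher in cDC1s than in cDC2s with WT medium, by 1.57 ± 0.11 (adjusted p = 2.45e-13). The lower gene, named after its values were seen, was Prps1 (-0.49 ± 0.11, adjusted p = 0.00758, and 0.0587 without WT replicate 2), a synthase of phosphoribosyl pyrophosphate. Rpia and Rpe, which interconvert pentose phosphates and were also named after their values were seen, were called in none of these comparisons. Other settings were not compared for them.

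A list of other NADPH sources, folate enzymes and the kinases that make NADP held 12 genes, of which 10 were tested in cDC1s and 11 in cDC2s. Not every enzyme on this list makes NADPH. In cDC1s 2 were called higher and 1 lower with BimS medium (median -0.01), and 2 higher and 2 lower with RIPK3 medium (median 0.00), while in cDC2s 1 was higher with each medium (medians -0.09 and -0.02). Between RIPK3 and BimS medium in cDC1s 1 was called higher and 2 lower, where 4.15% of genes were called. Aldh1l2, a mitochondrial folate enzyme that makes NADPH, was lower with RIPK3 than with BimS medium in cDC1s (-0.52 ± 0.13, adjusted p = 0.018, but 0.208 without BimS replicate 2, 0.05 without BimS replicate 3, 0.0536 without RIPK3 replicate 3 and 0.124 with all 17 samples in 1 fit). The others, named after their values were seen, were Mthfd2, higher, and Mthfd1l, lower. Both calls were lost with all 17 samples in 1 fit (0.12 and 0.383) and with limma on log2(count + 1) (0.592 and 0.0634). That of Mthfd1l was also lost without BimS replicate 2 or 3 or RIPK3 replicate 1 (0.118 to 0.151). Named after their values were seen, the genes called higher against WT medium were 3 mitochondrial folate enzymes. Mthfd2l was higher in cDC1s with BimS medium (1.30 ± 0.28, adjusted p = 0.000849) and RIPK3 medium (1.09 ± 0.29, adjusted p = 0.00601) and in cDC2s with BimS medium (1.39 ± 0.37, adjusted p = 0.027), from 5 to 19 reads per sample with WT medium. Its cDC2 call was lost with DESeq2 (0.0573) and without WT replicate 1 (0.102) or any BimS sample (0.0534 to 0.089). Mthfd1l was higher in cDC1s with BimS medium (0.22 ± 0.07, adjusted p = 0.0349), and Mthfd2 with RIPK3 medium in cDC1s (0.13 ± 0.05, adjusted p = 0.037) and cDC2s (0.39 ± 0.10, adjusted p = 0.0195). These 3 calls were each lost without single samples (adjusted p up to 0.186, 0.161 and 0.287), and without TMM normalization (0.166, 0.518 and 0.0843). The lower genes, also named after their values were seen, were Nadk, the cytosolic NAD kinase (-0.24 ± 0.06 and -0.31 ± 0.06 in cDC1s, the first with an adjusted p of 0.0555 without WT replicate 2), and Me2, a mitochondrial malic enzyme that mainly uses NAD (-0.29 ± 0.07 with RIPK3 medium in cDC1s). Me3, the mitochondrial malic enzyme that uses NADP and likewise named after its values were seen, had 0 to 1 counts per sample.

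Of 19 genes whose products use NADPH, 9 were called higher and 1 lower with BimS medium in cDC1s (median 0.55), 9 and 3 with RIPK3 medium in cDC1s (0.51), and 9 and 1 with each medium in cDC2s (0.31 and 0.42). Nqo1, a quinone reductase, had log2 fold changes of 2.82 ± 0.12 and 2.92 ± 0.12 in cDC1s and 1.63 ± 0.14 and 1.52 ± 0.15 in cDC2s. Gsr, which reduces oxidized glutathione, had 1.95 ± 0.06 with both media in cDC1s and 1.26 ± 0.09 and 1.09 ± 0.10 in cDC2s. Blvrb, a biliverdin reductase, had 2.05 ± 0.07 and 2.22 ± 0.07 in cDC1s and 1.08 ± 0.17 and 1.11 ± 0.19 in cDC2s. Cbr3, a carbonyl reductase, had 1.66 ± 0.10 and 1.93 ± 0.10 in cDC1s and 0.59 ± 0.15 and 0.70 ± 0.16 in cDC2s, where the BimS call was lost without WT replicate 2 (adjusted p = 0.0569) or BimS replicate 2 (0.0534) or 3 (0.107) and the RIPK3 call without either RIPK3 sample (0.144 and 0.054). Txnrd1, the cytosolic thioredoxin reductase, rose by 0.81 ± 0.04 and 0.87 ± 0.04 in cDC1s and by 0.58 ± 0.08 and 0.54 ± 0.08 in cDC2s.

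Ncf1, a subunit of the phagocyte oxidase named after its values were seen, was lower in all 4 comparisons with WT medium, from -0.30 ± 0.07 in cDC1s with BimS medium to -0.68 ± 0.08 in cDC2s with RIPK3 medium. Both of its cDC1 calls were lost without RIPK3 replicate 3 (adjusted p = 0.104 and 0.121). Interactions of the same sign as those of G6pdx were called for Nqo1 (1.18 ± 0.24 and 1.39 ± 0.25, adjusted p = 0.0291 and 0.0109), Gsr (0.69 ± 0.11 and 0.85 ± 0.12) and Cbr3 (1.07 ± 0.18 and 1.22 ± 0.19) with both media, and for Blvrb with RIPK3 medium (1.11 ± 0.24, adjusted p = 0.0437). Those of Gsr and Cbr3 were called under all settings and without each sample of the groups compared, whereas that of Nqo1 with BimS medium was lost without any of 8 samples (adjusted p from 0.0593 to 0.102) and that of Blvrb without any of 8 samples (0.0545 to 0.227). With WT medium Nqo1, Gsr and Blvrb were, like G6pdx and Pgd, lower in cDC1s than in cDC2s, by -3.01 ± 0.18, -2.24 ± 0.08 and -1.96 ± 0.17.

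Genes of glucose entry and of glycolytic steps shared with the pathway were mixed. Of 12 tested, 5 were called higher and 2 lower with each medium in cDC1s (medians 0.06 and 0.15), 2 and 1 with BimS medium in cDC2s (-0.08) and 3 and 2 with RIPK3 medium in cDC2s (0.00). Aldoa, the aldolase, was higher in all 4 comparisons, between 0.51 ± 0.09 and 0.59 ± 0.05, as was Slc2a1, a glucose transporter, between 0.27 ± 0.07 and 0.57 ± 0.10. With BimS medium the Slc2a1 call was lost in cDC1s without WT replicate 3 (adjusted p = 0.103) or TMM normalization (0.051), and in cDC2s without BimS replicate 2 (0.0548). Hk2, a hexokinase that makes glucose 6-phosphate, was higher with BimS medium (0.56 ± 0.11) and RIPK3 medium (0.75 ± 0.11) in cDC1s and with RIPK3 medium in cDC2s (0.76 ± 0.12). With BimS medium in cDC2s it was called with the replicate number as a block (adjusted p = 1.58e-05), without a filter (0.0133) and with all 17 samples in 1 fit (0.0463). Pfkl, a phosphofructokinase subunit that commits sugar to glycolysis, was lower in cDC1s with BimS medium (-0.46 ± 0.10, adjusted p = 0.00131) and RIPK3 medium (-0.54 ± 0.10, adjusted p = 0.000157), and in cDC2s it was called lower only under other settings, the block among them (0.00299 and 0.00184). Tigar, a fructose bisphosphatase, was lower in cDC2s with RIPK3 medium (-0.56 ± 0.17, adjusted p = 0.0441), a call lost without WT replicate 1 or 2, BimS replicate 1 or 2 or either RIPK3 sample (0.0573 to 0.263), and with RLE size factors (0.0531), DESeq2 (0.0805) or limma-trend on log2 CPM (0.0519).

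Among 7 regulators of the redox response, 6 were called higher with each medium in cDC1s (medians 0.53 and 0.54), 5 with BimS medium in cDC2s (0.45) and 3 with RIPK3 medium in cDC2s (0.33), and none was called lower. Mafg, a small MAF partner of NRF2, had 1.20 ± 0.05 and 1.30 ± 0.05 in cDC1s and 0.97 ± 0.07 and 1.03 ± 0.08 in cDC2s. Sqstm1, an autophagy receptor that binds KEAP1, had 0.78 ± 0.04 and 0.76 ± 0.04 in cDC1s and 0.52 ± 0.07 and 0.56 ± 0.08 in cDC2s. Maff was higher in all 4 comparisons as well, between 0.45 ± 0.08 and 0.74 ± 0.09. Bach1, a repressor at antioxidant response elements, and Keap1, the adaptor that marks NRF2 for degradation, were higher in cDC1s with BimS medium by 0.70 ± 0.06 and 0.53 ± 0.06, and with RIPK3 medium in cDC2s they were not called (adjusted p = 0.123 and 0.128). They were with the replicate number as a block (9.02e-06 and 5.57e-06) and with all 17 samples in 1 fit (0.0363 and 0.0293), as was Bach1 without a filter (0.0051) and Keap1 without cDC2 WT replicate 3 (0.0404). The Bach1 call with BimS medium in cDC2s was lost without BimS replicate 2 (0.0787). Nfe2l2, which encodes NRF2 itself and was named after its values were seen, was called in none of the comparisons between media. Other settings were not compared for it. Its level in cDC2s was 292 to 293 CPM with WT medium, 305 to 326 CPM with BimS medium and 341 to 352 CPM with RIPK3 medium. In cDC1s the groups overlapped.

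Limma on log2(count + 1) without normalization, the model of the study's methods, lost several calls of these listed genes against WT medium. Slc2a1 was lost in all 4 comparisons (adjusted p = 0.28 and 0.295 in cDC1s and 0.208 and 0.102 in cDC2s). In cDC1s with BimS medium H6pd (0.0658), Nadk (0.11) and Mthfd1l (0.442) were lost, and with RIPK3 medium Mthfd2 (0.958). In cDC2s with BimS medium Cbr3 (0.102), Maff (0.0826) and Keap1 (0.11) were lost, and with RIPK3 medium H6pd (0.29), Cbr3 (0.11), Aldoa (0.103), Txnrd1 (0.0868), Mthfd2 (0.427) and Sqstm1 (0.0639).

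With the replicate number as a block, edgeR called further listed genes. Against WT medium these were Nadk in cDC2s with both media (adjusted p = 5.97e-05 and 0.000436), Tigar and Mthfd1l in cDC2s with BimS medium (0.0244 and 0.0179), Prps1 in cDC2s with RIPK3 medium (0.026) and Aldh1l2 in cDC1s with BimS medium (0.0226). Between RIPK3 and BimS medium they were Blvrb (0.00953 and 0.00137) and Hk2 (0.00571 and 0.000305) in cDC1s and cDC2s, Cbr3 (0.0187) and Me2 (0.0139) in cDC1s, and Mthfd2 (6.53e-23), Slc2a1 (0.00897), Maff (7.48e-07) and Bach1 (3.81e-06) in cDC2s. Interactions gained were those of Blvrb (0.0188) and Sqstm1 (0.0199) with BimS medium, Txnrd1 (0.0014) and Mthfd2 (0.0434) with RIPK3 medium and Ncf1 with both (0.00349 and 0.00694). Other settings also called some of these, up to 5 of them for Blvrb with BimS medium (adjusted p from 0.000294 to 0.0437) and 4 for Txnrd1 with RIPK3 medium (0.0111 to 0.0292). Between the cell types with WT medium the block also called Keap1 and Nadk lower in cDC1s (-0.16 for both, adjusted p = 0.0143 and 0.0145).

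**Figure D5:**
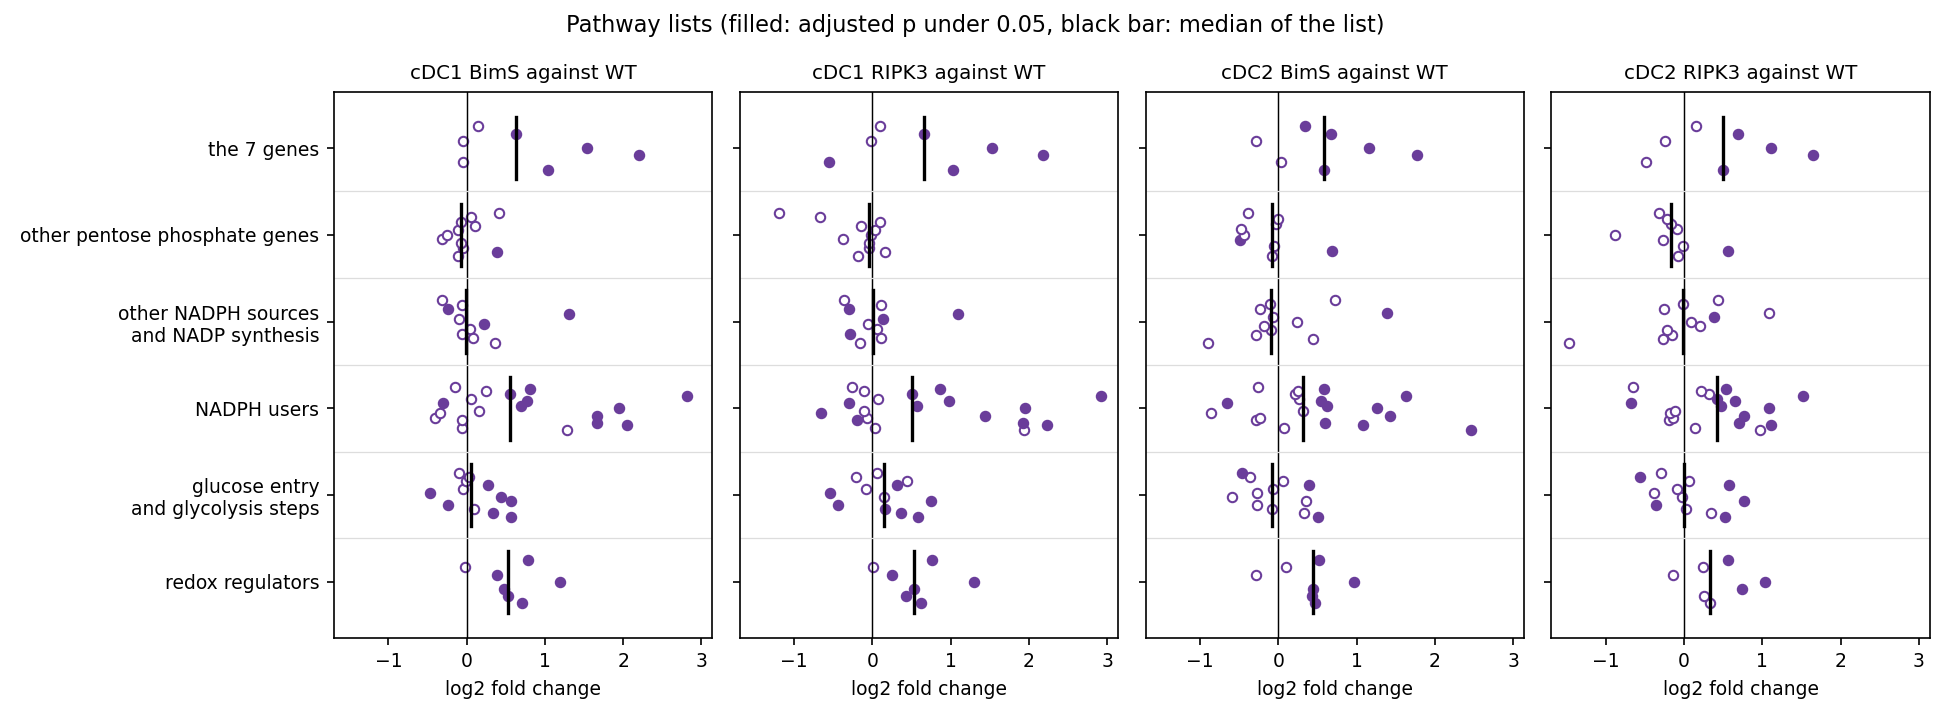
Each point is 1 gene of a list, placed by its log2 fold change against WT medium, filled where the adjusted p was under 0.05, and the bar marks the median of the list. The NADPH users and redox regulators have medians of 0.31 to 0.55, and the other pentose phosphate genes have medians of -0.17 to -0.05.

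Across the 17 samples, after subtraction of the mean of each cell type, the genes most like each member in log2 CPM were ranked by Pearson's r over about 7783 genes with an average log2 CPM of at least 3. All samples share libraries and media, so r describes a shared pattern and carries no p. G6pdx was most like Blvrb (r = 0.994), Lipa (0.992) and Gsr (0.992), with Pgd in place 10 (0.984). Pgd was most like Gclm (0.996), Creg1 (0.995) and Sqstm1 (0.995), and Me1 was most like Gca (0.990), Cat (0.987) and Gpc1 (0.986), with Pgd in place 12 (0.976). Taldo1 was most like Aldoa (0.995), Prdx6 (0.989) and Ftl1 (0.988).

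The remaining members followed other genes. Tkt was most like Mcm5 (0.896), Tubb2a (0.883) and Kin (0.876), with Taldo1 in place 79 (0.772). Pgls was most like Cops3 (0.927), Anapc11 (0.911) and Idh3g (0.896), and Idh1 most like 6530402F18Rik (0.854), Ppp2r3a (0.832) and Hsdl1 (0.829). The r of Pgls and of Idh1 with every other member was below 0, from -0.45 to -0.10.

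Some reads could belong to near-identical or overlapping genes, and whether strand was used in counting is not given in the sources used here. G6pdx shares 526 exon bases with Ikbkg on the opposite strand, which had 44970 counts over all samples. The copy of G6pdx without introns, G6pd2, had 67 counts. Me1 overlaps Rwdd2a (192 counts) and has a pseudogene, Gm7049 (44 counts), and Pgls overlaps Niban3 (253 counts) and Gm56877 (41 counts). Taldo1 has a pseudogene, Gm17823 (772 counts), and a transcript of Cep85l (11467 counts) is 93.4% identical to it over 1253 bases.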

How the data were processed

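RNA sequencing of polyadenylated RNA was measured in 17 samples. The authors trimmed reads with SeqPurge and used STAR 2.7.10a for alignment to GRCm39. Reads per gene of Ensembl 112 were then summed by gensum. The values used here are these counts as deposited, without normalization, and the authors' normalized table was not used. Lines without a gene identifier (148, with 0.0258% to 0.0366% of a sample's counts) were left out. Symbols came from GENCODE M39, which held 30854 of the 31091 identifiers, and promoter sequences from RefSeq, whose table is of an earlier build than GRCm39.

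A gene was tested where 50% or more of a fit's samples had a count above 0, in R 4.3.3 with edgeR 4.0.16, by the robust quasi-likelihood method with TMM normalization and Benjamini-Hochberg adjustment over all genes tested, at a threshold of 0.05. The 9 cDC1 and 8 cDC2 samples were fitted apart for the media, and all 17 together for cell types and interactions. Unless another tool is named, each adjusted p is from edgeR, and intervals are 95%. The script was tested on simulated counts. The study's own methods name limma 3.58.1 on the raw count matrix and a transformation to log2(count + 1). Limma on log2(count + 1) is one of the alternatives here, at the adjusted threshold of 0.05. Other alternatives are DESeq2 1.42.0, other normalizations and filters, the replicate number as a block and leaving out each sample. All depths in reads limit precision by counting error, and reads carry no molecular identifiers.

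The 7 genes and all lists were chosen with earlier results of these data known. All 7 are named in every comparison. Of the lists, those genes are named that had an adjusted p under 0.05, an average log2 CPM of at least 1 and a log2 fold change of at least 0.5 in size between media, up to 8 per list, and any other is marked. Some genes that meet this rule are not reported here. Fbp1, Krt19 and Hba-a2 were listed and not found in the table by symbol. Lists of neutrophil, B cell, T and NK cell and red cell markers summed to at most 3.94, 1.49, 1.62 and 1.50 CPM in a sample, and that of plasmacytoid dendritic cells to 54.2 to 66.0 CPM in cDC1s and 173 to 216 CPM in cDC2s, where Bst2 and Tcf4 are not exclusive to those cells. The 4 markers of both cDC types summed to 4937 to 8824 CPM.

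Samples of a cell type with the same replicate number deviated together from their group means: the correlation of deviations exceeded 0.1 in 16 of 16 such pairs, with a median of 0.355. Among 32 pairs of unlike number 4 did, and the median was -0.188. Between cell types 19 of 24 pairs of like number exceeded 0.1 (median 0.21), against 5 of 48 of unlike number. The numbers come from the sample labels, and no pairing is named in the methods. The block is therefore given where it changes the call of one of the 7 genes or of a listed gene that is named. For Rpia, Rpe, Me3, Nfe2l2 and the cell type markers the block and the other settings were not compared.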

Additional observations from a re-analysis of the deposited data

Results flagged for a closer look

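The response of G6pdx to debris differed between the cell types by a test of the interaction. Such interactions are built from differences known when the genes were picked, so they are a description here. The log2 fold change in cDC1s less that in cDC2s was 0.45 with BimS medium (interval 0.23 to 0.66) and 0.52 with RIPK3 medium (0.30 to 0.75). With BimS medium G6pdx rose 2.05-fold in cDC1s from 176 to 181 CPM, and 1.50-fold in cDC2s from 328.5 to 406.5 CPM. For Pgd the difference was 0.41 with RIPK3 medium (0.21 to 0.61), where it rose 2.88-fold in cDC1s and 2.16-fold in cDC2s. These differences are relative. In CPM the mean of Pgd went from 203 to 586 in cDC1s and from 453.5 to 985 in cDC2s, the larger rise. Both genes were lower in cDC1s than in cDC2s without debris, and both ended higher in cDC2s with it.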

How the results depend on the processing

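Of 70 differences among the 7 genes, 26 were called, and no called difference changed its direction. Of the called ones, 18 kept their call under every other setting run and with samples left out in turn. Between media each sample of the fit was left out. For cell types and interactions only samples of the groups compared were left out. For RIPK3 against BimS medium 0 members were called, against 1 in cDC1s and 2 in cDC2s with the replicate block, and 0 to 1 in cDC1s and 0 in cDC2s when samples were left out. For the interaction with BimS medium 1 member was called, against 2 without normalization beyond library size, with DESeq2, without a filter, with limma-trend on log2 CPM and with the replicate block, 0 with limma on log2(count + 1), and 0 to 2 when samples were left out. For that with RIPK3 medium 2 members were called, against 0 with limma on log2(count + 1) and 0 to 2 when samples were left out. Without normalization, limma on log2(count + 1) also lost G6pdx in cDC2s with RIPK3 medium (adjusted p = 0.151), Tkt in cDC2s with BimS medium (0.276) and Taldo1 between the cell types (0.402), and called Pgls between them (0.0265). There the cause was not tested. The block changed no call of the 7 genes other than those given beside the results.

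Left without TMM, the median of all genes moved in cDC2s from -0.02 to -0.11 with BimS medium and from -0.02 to -0.12 with RIPK3 medium, and the share of calls that were higher fell from 54.3% to 29.7% and from 54.5% to 31.8%, and in cDC1s from 55.4% to 34.8% and from 50.5% to 30.2%. With limma on log2(count + 1) this share was 27.9% in cDC1s and 22.8% in cDC2s with RIPK3 medium. With the block, counts over all genes moved in cDC2s from 1349 to 4103 with BimS medium and from 1387 to 4126 with RIPK3 medium, and for the interactions from 166 to 443 and from 217 to 449. Limma on log2(count + 1) gave 1510 calls against 2576 for BimS medium in cDC1s and 67 and 109 for the interactions, DESeq2 gave 261 for the first interaction, no filter 315 and 371, and a single fit of all samples 2143 and 2104 in cDC2s. Without single samples the calls in cDC2s ranged from 783 to 1504 with BimS medium and from 622 to 1819 with RIPK3 medium, and for the interactions from 93 to 234 and from 111 to 258. For RIPK3 against BimS medium they ranged from 489 to 1027 in cDC1s and from 0 to 214 in cDC2s without single samples, and from 269 to 1730 in cDC1s and from 46 to 2755 in cDC2s over the other settings. Depth limited Me1 and Idh1, with 15 to 39 reads of Me1 per sample with WT medium and 43 to 125 reads of Idh1 in all samples.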
